A study of Mus musculus with 8 samples.

Results

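The genes described are 10 genes that make, move, break down or sense prostaglandins: Ptgs1, Ptgs2, Ptges, Ptgis, Ptgds, Slco2a1, Hpgd, Ptger2, Ptger3 and Ptger4. They were picked by name and function, with earlier results of these data known, and they are 10 of the 55358 genes in the data. RNA was sequenced from mouse embryonic fibroblasts, which are connective tissue cells grown from embryos. The groups were Arid5a-/- cells (KO) given IL-6 at 100 ng/ml for 24 h, KO cells without IL-6, wild-type cells (WT) given the same IL-6 for 24 h, and WT cells without it. Each of the 4 groups had 2 libraries. Arid5a is an RNA-binding protein known to stabilise certain inflammatory mRNAs, and IL-6 is a cytokine that signals through Stat3. The labels give neither a strain, a sex, an embryonic age nor the number of embryos or lines behind each genotype. Whether a group's 2 libraries stem from separate cultures is not stated either, and every p-value therefore covers variation among the libraries only, possibly technical.

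Prostaglandins are short-lived lipid signals made from arachidonic acid. Cyclooxygenases (Ptgs1, the constitutive enzyme, and Ptgs2, the inducible one) turn it into prostaglandin H2, and terminal synthases convert that into prostaglandin E2 (Ptges), prostacyclin (Ptgis) or prostaglandin D2 (Ptgds). The transporter Slco2a1 takes prostaglandins up into cells, Hpgd oxidises them to inactive products, and Ptger2, Ptger3 and Ptger4 are receptors for prostaglandin E2. Fibroblasts are a known source of prostaglandin E2 and prostacyclin.

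Values are FPKM (fragments per kilobase of transcript per 1e6 fragments), which are scaled by length and can be set beside each other between genes. Steps in the low values corresponded to 39.5 and 46.2 M fragments (M, 1e6) in the KO libraries with IL-6, 36.5 and 40.5 M without, 39.0 and 39.3 M in the WT libraries with IL-6 and 39.9 and 42.7 M without. Changes are differences of log2(FPKM + 1) with their standard error from limma, and a gene was called at a Benjamini-Hochberg adjusted p below 0.05 over 13693 tested genes. The added 1 makes the changes of genes near or below 1 FPKM look smaller than they are. Of the 10 genes 6 reached 1 FPKM in at least 2 of the 8 libraries and were tested. Ptgds and the 3 receptors did not, and they are given by their values alone.

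The promoters of Ptgs2, Ptges and Hpgd are shown because these were the genes of the set that were called after IL-6. Each runs from 250 bases before to 50 bases after the RefSeq start (GRCm38.p6), 5′ to 3′ on the gene's strand, and capitals mark matches to the motifs searched.
Ptgs2 (chr1:150099781-150100080, plus strand): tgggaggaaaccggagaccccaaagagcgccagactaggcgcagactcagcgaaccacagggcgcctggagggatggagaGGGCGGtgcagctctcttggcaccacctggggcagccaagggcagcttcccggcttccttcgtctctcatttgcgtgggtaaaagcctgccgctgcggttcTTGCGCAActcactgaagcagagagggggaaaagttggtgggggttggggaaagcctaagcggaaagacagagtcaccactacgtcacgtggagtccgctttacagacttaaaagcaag
Ptges (chr2:30903248-30903547, minus strand): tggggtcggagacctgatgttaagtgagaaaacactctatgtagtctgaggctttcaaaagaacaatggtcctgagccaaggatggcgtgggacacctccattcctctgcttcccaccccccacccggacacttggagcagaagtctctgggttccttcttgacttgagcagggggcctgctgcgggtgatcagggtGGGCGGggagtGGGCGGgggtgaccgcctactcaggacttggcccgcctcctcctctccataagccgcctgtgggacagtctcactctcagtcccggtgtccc
Hpgd (chr8:56294302-56294601, plus strand): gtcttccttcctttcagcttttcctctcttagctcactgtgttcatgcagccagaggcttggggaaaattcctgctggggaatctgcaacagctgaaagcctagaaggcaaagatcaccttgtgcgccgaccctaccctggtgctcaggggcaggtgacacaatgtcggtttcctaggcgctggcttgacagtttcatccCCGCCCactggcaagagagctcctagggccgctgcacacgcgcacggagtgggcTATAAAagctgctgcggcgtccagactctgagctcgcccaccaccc
In the Ptgs2 window the capitals are GGGCGG, an SP1 motif, and TTGCGCAA, a C/EBP motif. The Ptges window held 2 copies of GGGCGG. The Hpgd window held CCGCCC, the same motif on the other strand, and TATAAA, which lies 29 bases before the start of the Hpgd transcript in the GENCODE annotation.

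Motifs were searched on both strands in the 9 genes of the set with a RefSeq window, and Ptgis had none. GGGCGG was found in 6 of the 9 windows and in 35.7% of the 32851 windows of all genes. TTGCGCAA was found in Ptgs2 alone of the 9, and in 0.2% of all windows. TATAAA was in the Hpgd and Slco2a1 windows, against 13.6% of all windows, and the AP-1 motif TGACTCA was in the Ptgds window, against 5.2% of all windows. None of the 9 windows held TTCNNNGAA, the letters of a STAT site (8.3% of all windows), an NF-kappaB motif (0.2%), or TGACGTCA, the cAMP response element (1.8%). No match shown overlaps another, and a match or its absence says only whether the letters are in the window.

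The order of the genes by level differed between the genotypes. In untreated WT cells the order of mean levels was Ptgs1 (29.5 FPKM), Slco2a1 (25.4), Ptges (16.4), Ptgs2 (10.97), Hpgd (5.94) and Ptgis (0.587), and no 2 neighbours in that order overlapped. In untreated KO cells Ptgis came first (174 FPKM), then Ptgs1 (89.9), Slco2a1 (11.6), Ptgs2 (4.43), Ptger4 (0.624) and Ptges (0.315), again with no overlap between neighbours. With IL-6 the WT order became Ptgs1 (29.8 FPKM), Ptges (28.4), Slco2a1 (26.3), Ptgs2 (18.3), Ptgis (0.857) and Hpgd (0.644), with no overlap. In KO cells with IL-6 the first 4 kept their order, while Ptger4 and Ptgds overlapped, as did Ptgds and Ptges.

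**Figure D1:**
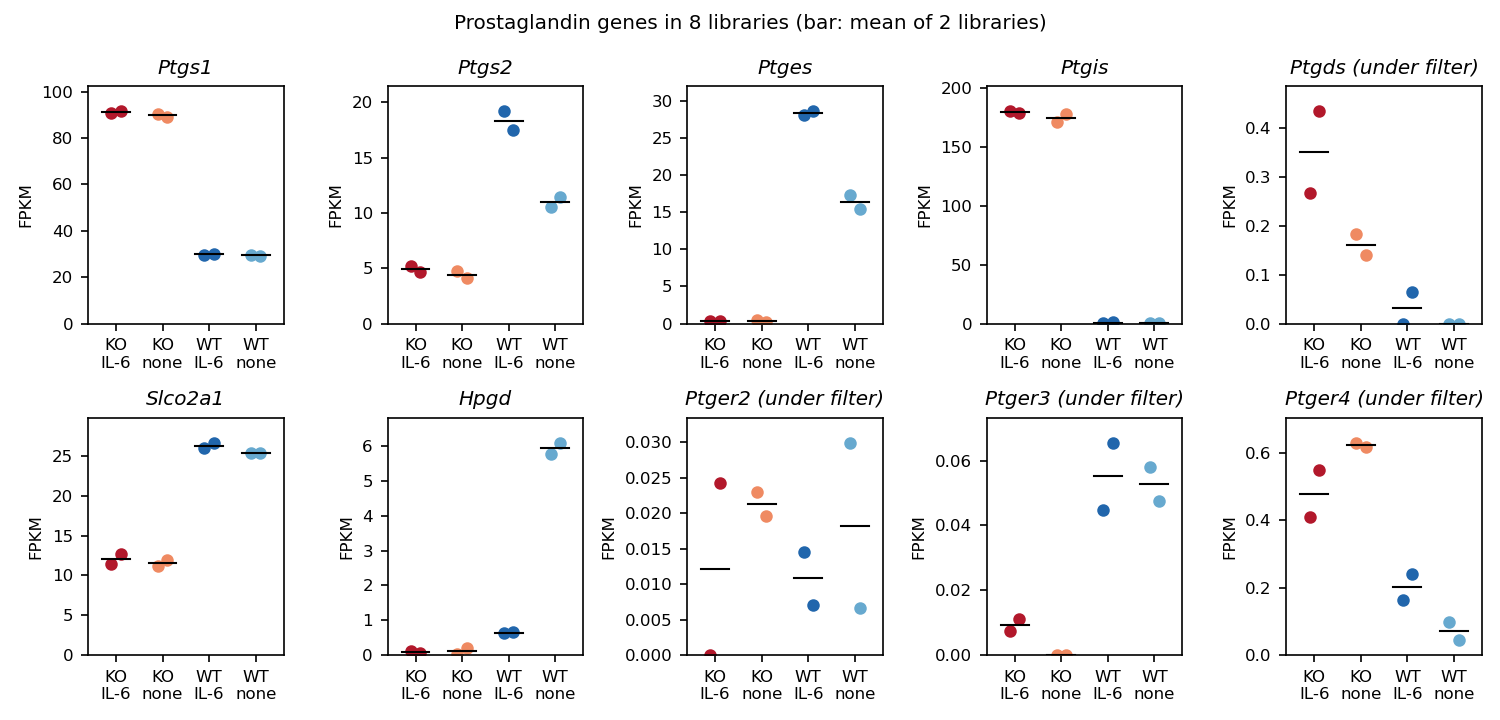
FPKM of each of the 10 prostaglandin genes in every library (points) with the mean of each group (bars), on a separate scale for each gene, for KO with IL-6, KO, WT with IL-6 and WT from left to right. Ptgis stands at 171 to 180 FPKM in the 4 KO libraries and under 1 FPKM in the 4 WT libraries, and Ptges shows the opposite pattern.

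The genotypes differed in more than Arid5a, and this bears on every KO against WT value that follows. Arid5a itself, the targeted gene, stood at 26.9% of the WT level in KO cells with IL-6 and 35.7% without. In KO libraries Xist was at 55.2 FPKM or more and 4 genes of the Y chromosome were at 0.0651 FPKM or less, whereas in WT libraries Xist was under 0.01 FPKM and those genes were at 9.92 to 62.8 FPKM. The 6 markers of mesothelial cells, the lining cells of body cavities, were all higher in KO cells in both comparisons, and they summed to 1593 to 1649 FPKM in KO libraries and 38.3 to 52.7 FPKM in WT libraries. Of 8 fibroblast markers 5 were lower in KO cells and 2 higher without IL-6, and 5 lower and 3 higher with it, at sums of 3285 to 3532 FPKM in KO libraries and 2870 to 3670 FPKM in WT libraries. The epithelial markers summed to 267 to 280 FPKM in KO and 5.21 to 7.80 FPKM in WT libraries, and Krt19, which is also on the mesothelial list, made up most of this. The endothelial list summed to at least 10.8 FPKM in KO and at most 0.181 FPKM in WT libraries, with Kdr and Tek higher in KO and the defining markers Pecam1 and Cdh5 at 0.105 FPKM or less in all 8. Macrophage markers summed to at most 3.49 FPKM, with Ptprc and Adgre1 at or near 0. Loss of Arid5a, sex and cell origin therefore cannot be told apart in a KO against WT difference, and in bulk RNA fewer cells of a type and less RNA per cell cannot be told apart either.

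IL-6 raised the inducible cyclooxygenase and the prostaglandin E2 synthase and lowered the degrading enzyme in WT cells. None of the 6 tested genes was called in KO cells. Hpgd was at most 0.194 FPKM and Ptges at most 0.455 FPKM in the KO libraries. The added 1 therefore makes any KO change of these 2 genes look smaller. In WT cells Ptgs2 and Ptges rose and Hpgd fell, while Ptgs1, Ptgis and Slco2a1 did not pass the test. In WT cells 15.7% of all tested genes were called, 8.3% higher and 7.41% lower. The median change of the 6 genes was 0.14, beside -0.002 for all tested genes. In KO cells 0 of the 6 were called by limma and 0 had an unadjusted p below 0.05. There, 0.0219% of all tested genes were called, which is 3 genes, and 1025 had an unadjusted p below 0.05. The median change in KO cells was 0.03, beside 0.00 for all tested genes. Markers of cell type also moved with IL-6 in WT cells: of the 8 fibroblast markers 2 rose and 3 fell, at sums of 2870 to 2979 FPKM with IL-6 and 3551 to 3670 FPKM without, and 1 of 6 mesothelial markers fell. Of the 4 adipocyte markers Fabp4 rose, at 28.9 and 32.7 FPKM with IL-6 and 6.44 and 7.45 FPKM without, while Adipoq was listed at 0 in all 4 WT libraries. The part of these shifts in the prostaglandin results was not tested.

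KO cells differed from WT cells in every tested gene of the set. Ptgs1 and Ptgis were higher and Ptgs2, Ptges, Slco2a1 and Hpgd lower, both without and with IL-6. Calls were the rule in these comparisons: 71% of all tested genes were called without IL-6, 36.4% higher and 34.5% lower, and 71.7% with IL-6, 36.9% higher and 34.8% lower. The call of all 6 is to be read against that background. The median difference of the 6 was -1.10 without IL-6 and -0.83 with it, beside 0.01 for all tested genes in both.

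**Figure D2:**
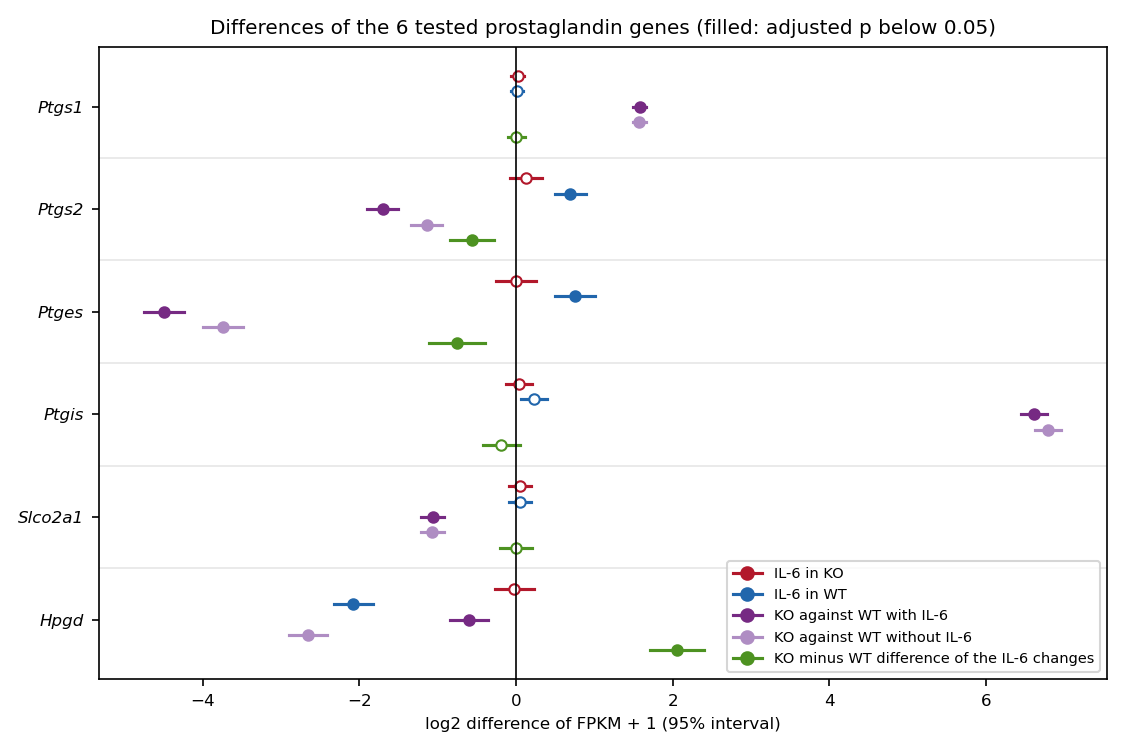
Differences of log2(FPKM + 1) for the 6 tested genes with their 95% confidence intervals, for the IL-6 change in KO and in WT cells, for KO against WT with and without IL-6 and for the KO minus WT difference of the IL-6 changes, with filled points where the adjusted p was below 0.05. The KO changes with IL-6 all lie near 0, Hpgd has the lowest change in WT cells at -2.08, and Ptgis has the largest KO against WT difference at 6.79 without IL-6. For Hpgd and Ptges, at most 0.194 and 0.455 FPKM in KO libraries, the added 1 makes KO changes look smaller.

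Ptgs1 (chr2:36230426-36252272, plus strand), the constitutive cyclooxygenase, was a gene of genotype and not called for IL-6. It was at 90.7 and 91.5 FPKM in KO cells with IL-6, 90.6 and 89.2 in untreated KO cells, 29.72 and 29.97 in WT cells with IL-6 and 29.8 and 29.3 in untreated WT cells. All 4 KO libraries lay above all 4 WT libraries, and libraries with and without IL-6 lay close together. KO cells held 3.05 times the WT level with IL-6 (1.58 ± 0.03, adjusted p = 1.38e-08) and 3.04 times without it (1.57 ± 0.03, adjusted p = 1.49e-08). The IL-6 change was 0.02 in KO cells (95% interval -0.06 to 0.10) and 0.01 in WT cells (-0.06 to 0.09). Most of the signal came from the full-length transcript Ptgs1-201, at 83.3% of the gene in KO cells with IL-6, 82.6% in untreated KO cells, 84.8% in WT cells with IL-6 and 91.2% in untreated WT cells. The short Ptgs1-203, of 573 bases, was at 7.45 and 8.30 FPKM in KO cells with IL-6, 10.1 and 6.97 in untreated KO cells, 2.12 and 2.06 in WT cells with IL-6 and 0.774 and 0.577 in untreated WT cells.

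Ptgs2 (chr1:150100031-150108227, plus strand), the inducible cyclooxygenase also called COX-2, was lower in KO cells and rose with IL-6 in WT cells. It was at 5.22 and 4.65 FPKM in KO cells with IL-6, 4.71 and 4.16 in untreated KO cells, 19.2 and 17.5 in WT cells with IL-6 and 10.5 and 11.4 in untreated WT cells. The WT groups did not overlap, whereas in KO cells 1 library with IL-6 lay below 1 library without it. In WT cells the level with IL-6 was 1.67 times that without (0.69 ± 0.09, adjusted p = 0.00205). In KO cells the change was 0.13 (95% interval -0.07 to 0.33, adjusted p = 0.798). KO cells held 26.9% of the WT level with IL-6 (-1.70 ± 0.09, adjusted p = 1.14e-06) and 40.4% without it (-1.14 ± 0.09, adjusted p = 1.16e-05).

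The balance of the 2 cyclooxygenases moved accordingly. The ratio of Ptgs1 to Ptgs2 FPKM was 17.4 and 19.7 in KO libraries with IL-6, 19.2 and 21.5 in untreated KO libraries, 1.55 and 1.71 in WT libraries with IL-6 and 2.83 and 2.57 in untreated WT libraries. Ptgs1 was thus the higher of the 2 in all 8 libraries, by the widest margin in KO cells. The only transcript of Ptgs2 with signal was Ptgs2-201, and Ptgs2-202 was listed at 0 in all 8 libraries.

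Ptgs2 has an RNA on the minus strand at either side, and neither overlaps it in the annotation. Ptgs2os, which lies upstream (chr1:150074873-150099963), was at 0.474 and 0.361 FPKM in KO cells with IL-6, 0.494 and 0.456 in untreated KO cells, 0.987 and 1.26 in WT cells with IL-6 and 0.874 and 1.17 in untreated WT cells. It was lower in KO cells with IL-6 (-0.58, adjusted p = 0.00267) and without it (-0.45, adjusted p = 0.00953), and IL-6 moved it by 0.07 in WT cells, which did not pass (adjusted p = 0.74). Ptgs2os2, downstream (chr1:150159043-150164948), was listed at 0 in 3 of the 4 KO libraries and was at 0.733 to 1.09 FPKM in the WT libraries.

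The terminal synthases Ptges and Ptgis differed between the genotypes in opposite directions. Ptges (chr2:30889471-30929863, minus strand), the inducible prostaglandin E2 synthase also called mPGES-1, was at 0.340 and 0.283 FPKM in KO cells with IL-6, 0.455 and 0.176 in untreated KO cells, 28.2 and 28.6 in WT cells with IL-6 and 17.4 and 15.5 in untreated WT cells. The KO values rest on about 10.8 to 21.6 fragments a library and the WT values on 1574 to 2628. All KO libraries lay far below all WT libraries, the WT groups did not overlap, and the KO groups did.

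With IL-6 the Ptges level in WT cells was 1.73 times that without (0.76 ± 0.11, adjusted p = 0.00419). The call was lost with a pseudocount of 0.1, where the change was 0.79 (limma adjusted p = 0.12). It was kept with only the groups compared (limma adjusted p = 0.0153). In KO cells the change was 0.00 (95% interval -0.25 to 0.26). KO cells were lower by limma with IL-6 (-4.49 ± 0.11, adjusted p = 2.57e-08) and without it (-3.74 ± 0.11, adjusted p = 6.74e-08). In WT cells 2 transcripts carried the gene. Ptges-202, which begins at the RefSeq start, was at 17.9 and 17.2 FPKM with IL-6 and 10.4 and 10.4 without, and the shorter Ptges-201, which begins further downstream, was at 10.3 and 11.3 FPKM with IL-6 and 6.498 and 4.861 without. For both, each library with IL-6 lay above each library without.

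Ptgis (chr2:167191805-167240604, minus strand), the prostacyclin synthase, was at 180 and 179 FPKM in KO cells with IL-6, 171 and 178 in untreated KO cells, 0.797 and 0.916 in WT cells with IL-6 and 0.692 and 0.481 in untreated WT cells. The WT values rest on about 35.4 to 68.7 fragments a library. KO cells held 210 times the WT level with IL-6 (6.61 ± 0.07, adjusted p = 5.62e-10) and 297 times without it (6.79 ± 0.07, adjusted p = 4.95e-10). It was the gene of the set with the largest difference between the genotypes.

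The Ptgis change with IL-6 was 0.04 in KO cells (95% interval -0.12 to 0.21) and 0.23 ± 0.07 in WT cells, which did not pass (adjusted p = 0.0713). In WT cells both libraries with IL-6 lay above both without. In KO cells Ptgis-201 made up 76.4% of the gene with IL-6 and 77.1% without, and Ptgis-202 nearly all of the rest, at 42.3 and 41.9 FPKM with IL-6 and 35.6 and 44.0 without. Gm14291, which overlaps Ptgis on the opposite strand, was at 0.699 to 1.20 FPKM in KO libraries and listed at 0 in the WT libraries. Since the counting is not stated to use strand, reads of overlapping genes cannot be told apart, and this also touches Ptgs1, Slco2a1, Ptger2 and Ptger4.

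Ptgds (chr2:25466709-25470046, minus strand), the prostaglandin D2 synthase also known as a lipid carrier of brain fluid, was at 0.267 and 0.433 FPKM in KO cells with IL-6 and 0.183 and 0.140 in untreated KO cells. In WT cells with IL-6 it was listed at 0 in 1 library and at 0.0652 in the other, and in untreated WT cells it was listed at 0 in both. These values rest on at most 11.8 fragments a library.

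Slco2a1 (chr9:102988712-103096002, plus strand), the prostaglandin transporter, was at 11.4 and 12.7 FPKM in KO cells with IL-6, 11.2 and 12 in untreated KO cells, 26.0 and 26.7 in WT cells with IL-6 and 25.5 and 25.4 in untreated WT cells. The 4 KO libraries lay below the 4 WT libraries, and the KO libraries with and without IL-6 overlapped, whereas both WT libraries with IL-6 lay just above both without. KO cells held 45.9% of the WT level with IL-6 (-1.07 ± 0.06, adjusted p = 2.48e-06) and 45.7% without it (-1.07 ± 0.06, adjusted p = 2.62e-06). The IL-6 change was 0.05 in KO cells (95% interval -0.09 to 0.19) and 0.05 in WT cells (-0.09 to 0.19).

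Hpgd (chr8:56294585-56321043, plus strand), the 15-hydroxyprostaglandin dehydrogenase that begins prostaglandin breakdown, was at 0.116 and 0.0567 FPKM in KO cells with IL-6, 0.0179 and 0.194 in untreated KO cells, 0.641 and 0.647 in WT cells with IL-6 and 5.79 and 6.09 in untreated WT cells. These correspond to 6.9 and 3.9 fragments in KO cells with IL-6, 1.0 and 11.8 in untreated KO cells, 37.6 and 38.2 in WT cells with IL-6 and 347 and 391 in untreated WT cells. The KO libraries were near the limit of detection in both conditions, and the 2 WT groups were far apart.

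In WT cells with IL-6 Hpgd stood at 10.8% of the untreated level (-2.08 ± 0.11, adjusted p = 4.18e-05), and 9 of the 13693 tested genes had a lower change. By the same order, 247 genes had a higher change than Ptgs2 and 222 a higher change than Ptges. Hpgd passed the filter only through the untreated WT libraries, the group where it was highest. The change in KO cells was -0.02 (95% interval -0.27 to 0.22). KO cells were lower with IL-6 (-0.60 ± 0.11, adjusted p = 0.00133) and without it (-2.65 ± 0.11, adjusted p = 3.49e-07). The ratio of Ptgs2 to Hpgd FPKM in WT cells was 29.9 and 27.0 with IL-6 and 1.82 and 1.87 without.

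**Figure D3:**
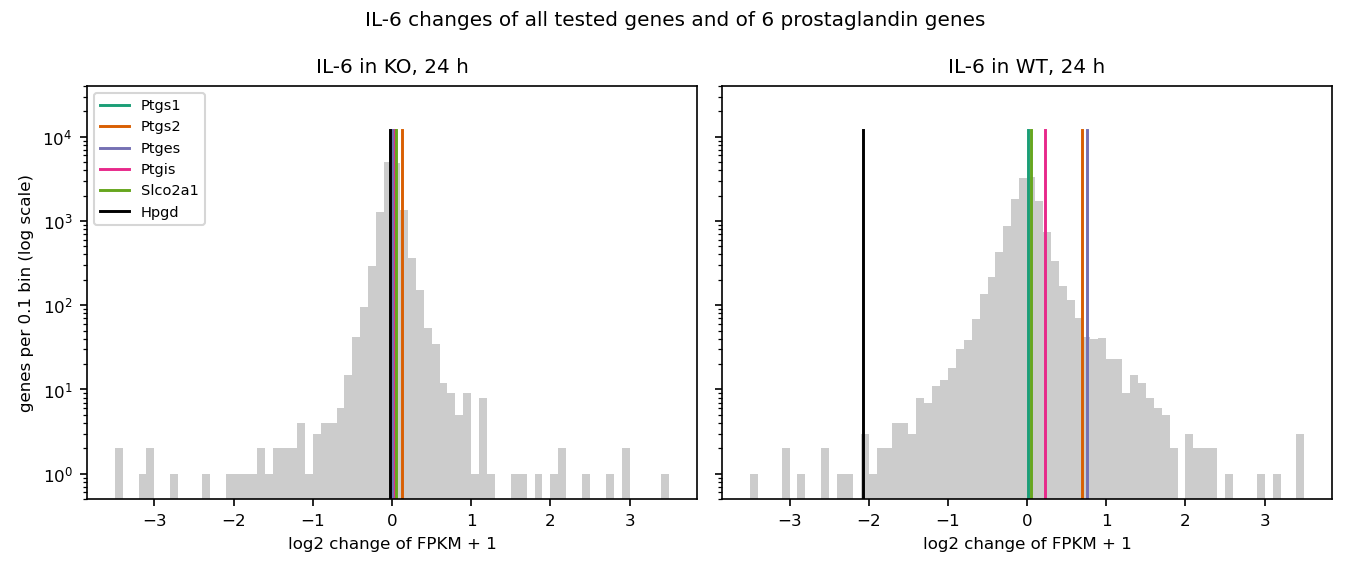
Distribution over the 13693 tested genes of the IL-6 change in log2(FPKM + 1), in KO cells and in WT cells, with vertical lines at the changes of the 6 tested prostaglandin genes. Changes past the ends of the axis are counted in the last bins. In WT cells Hpgd lies at the far left of the distribution and Ptgs2 and Ptges to the right of its centre, while in KO cells all 6 lie within 0.13 of 0. Hpgd and Ptges were at most 0.194 and 0.455 FPKM in KO libraries, where the added 1 makes changes look smaller.

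Of the receptors for prostaglandin E2, Ptger2, Ptger3 and Ptger4 were all below 1 FPKM in every library. Ptger4 (chr15:5206661-5244187, minus strand), which raises cAMP, was at 0.409 and 0.550 FPKM in KO cells with IL-6, 0.630 and 0.618 in untreated KO cells, 0.164 and 0.240 in WT cells with IL-6 and 0.0977 and 0.0441 in untreated WT cells. The 4 KO libraries lay above the 4 WT libraries. Within WT cells both libraries with IL-6 lay above both without, on 20.0 and 29.4 fragments with IL-6 and 12.2 and 5.9 without. Within KO cells both libraries with IL-6 lay below both without. Ttc33, which overlaps Ptger4 on the opposite strand, was at 17.7 to 20.4 FPKM in the KO libraries and 21.2 to 24.2 FPKM in the WT libraries.

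Ptger2 (chr14:44988195-45003820, plus strand), which also raises cAMP, did not exceed 0.0299 FPKM in any library. Ptger3 (chr3:157566892-157645888, plus strand), which lowers cAMP, was at 0.00734 and 0.0111 FPKM in KO cells with IL-6 and listed at 0 in both untreated KO libraries. It was at 0.0449 and 0.0654 FPKM in WT cells with IL-6 and 0.0580 and 0.0475 in untreated WT cells, on at most 7.9 fragments a library. At this depth no difference in Ptger2 or Ptger3 was assessed.

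The IL-6 changes differed between KO and WT cells for 3 of the 6 tested genes, against 6.06% of all tested genes. The difference, KO minus WT, was 2.06 ± 0.15 for Hpgd (95% interval 1.71 to 2.40, adjusted p = 0.000756), -0.75 ± 0.15 for Ptges (-1.11 to -0.39, adjusted p = 0.0344) and -0.56 ± 0.12 for Ptgs2 (-0.84 to -0.28, adjusted p = 0.0391). It was 0.01 for Ptgs1 (-0.11 to 0.12), 0.00 for Slco2a1 (-0.20 to 0.20) and -0.19 for Ptgis (-0.42 to 0.05), none of which passed. The median of the 6 was -0.09, beside 0.00 for all tested genes. The Hpgd call held under every alternative run, with a pseudocount of 0.1 at 3.003 (adjusted p = 0.035). Hpgd passed the filter through the untreated WT libraries alone and was at most 0.194 FPKM in the KO libraries. A fall as large as that in WT cells could not have been seen from that level under any alternative. The Ptgs2 call was lost without any 1 of the 8 libraries (adjusted p = 0.0619 to 0.123), with no filter (0.106), with a pseudocount of 0.1 (0.0599) and with equal totals (0.0626). The Ptges call was lost without any 1 of 7 libraries (0.0583 to 0.113), kept without the second untreated KO library, and lost with no filter (0.112) and with a pseudocount of 0.1 (0.375). Ptges was at 0.176 to 0.455 FPKM in the KO libraries. From that level the added 1 makes a rise of the same ratio look smaller than in WT cells.

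Outside the 10 genes, a list of 36 other genes of the eicosanoid pathway was read, of which 35 were found in the data and 19 tested. With IL-6, 4 rose and 0 fell in WT cells, and in KO cells 0 were called by limma and 2 had an unadjusted p below 0.05. Over all tested genes 15.7% were called in WT cells, 8.3% higher, and 0.0219% in KO cells. The median change was 0.10 in WT cells and 0.03 in KO cells. Without IL-6, 5 of the 19 were higher and 9 lower in KO cells, and with it 6 were higher and 10 lower, beside 71% and 71.7% of all tested genes called, so these counts are near the background. The median difference was -0.26 without IL-6 and -0.29 with it. The IL-6 changes differed for 2 of the 19, both lower in KO cells than in WT cells, against 6.06% of all tested genes.

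The 4 that rose in WT cells were 2 receptors and 2 synthases. Ptgfr, the receptor for prostaglandin F2alpha, was at 0.0740 and 0.0231 FPKM in KO cells with IL-6, 0.0393 and 0.0176 in untreated KO cells, 17.3 and 19.4 in WT cells with IL-6 and 8.69 and 8.95 in untreated WT cells. In WT cells the level with IL-6 was 2.08 times that without (0.98 ± 0.08, adjusted p = 0.000317). KO cells were lower with IL-6 (-4.21 ± 0.08, adjusted p = 7.87e-09) and without it (-3.26 ± 0.08, adjusted p = 2.97e-08). The IL-6 changes differed by -0.95 ± 0.11 (adjusted p = 0.00459), a call lost with a pseudocount of 0.1 (adjusted p = 0.15). From its KO levels the added 1 makes a rise of the same ratio look much smaller than in WT cells.

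Ptger1, the receptor for prostaglandin E2 that raises calcium, was at 1.495 and 1.222 FPKM in KO cells with IL-6, 1.06 and 1.10 in untreated KO cells, 6.94 and 8.40 in WT cells with IL-6 and 5.58 and 5.66 in untreated WT cells. It was the highest of the 4 prostaglandin E2 receptors in all 8 libraries. Its change in WT cells was 0.38 ± 0.10 (adjusted p = 0.0433), a call lost without any 1 of 7 libraries (0.0521 to 0.189), kept without the first WT library with IL-6, and lost with no filter (0.127), a pseudocount of 0.1 (0.076), equal totals (0.061) and only the groups compared (0.123). KO cells were lower with IL-6 (-1.88 ± 0.10, adjusted p = 1.78e-06) and without it (-1.67 ± 0.10, adjusted p = 3.61e-06).

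Akr1b3, an aldose reductase that can form prostaglandin F2alpha, was at 68.2 and 69.8 FPKM in KO cells with IL-6, 75.5 and 75.7 in untreated KO cells, 50.3 and 54.5 in WT cells with IL-6 and 42.9 and 42.0 in untreated WT cells. It rose in WT cells (0.30 ± 0.05, adjusted p = 0.00545), with an adjusted p of 0.0565 when only the groups compared were fitted. In KO cells both libraries with IL-6 lay below both without. The difference of the changes was -0.43 ± 0.06 (adjusted p = 0.0114), a call lost without the first KO library with IL-6 (0.052) or without the second untreated KO library (0.0508).

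Akr1c18, a reductase known chiefly for progesterone breakdown, was at 0.146 and 0.0692 FPKM in KO cells with IL-6, 0.0290 and 0.0713 in untreated KO cells, 1.001 and 1.242 in WT cells with IL-6 and 0.0800 and 0.473 in untreated WT cells. It passed the filter only through the WT libraries with IL-6, the group where it was highest. Its change in WT cells was 0.75 ± 0.16 (adjusted p = 0.0202), a call lost with a pseudocount of 0.1 (0.0609), with only the groups compared (0.0916) and when 3 of the 8 libraries were left out in turn (0.0572 to 0.102). The 3 largest genotype differences on the list were those of Ptgfr, Alox5ap and Ptger1, in that order. Alox5ap encodes a partner protein of the leukotriene-forming lipoxygenase. It was at 1.01 and 0.380 FPKM in KO cells with IL-6, 0.360 and 0.994 in untreated KO cells, 5.80 and 7.14 in WT cells with IL-6 and 5.48 and 5.67 in untreated WT cells. KO cells were lower with IL-6 (-2.16 ± 0.23, adjusted p = 7.45e-05) and without it (-1.998 ± 0.225, adjusted p = 0.000121).

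**Figure D4:**
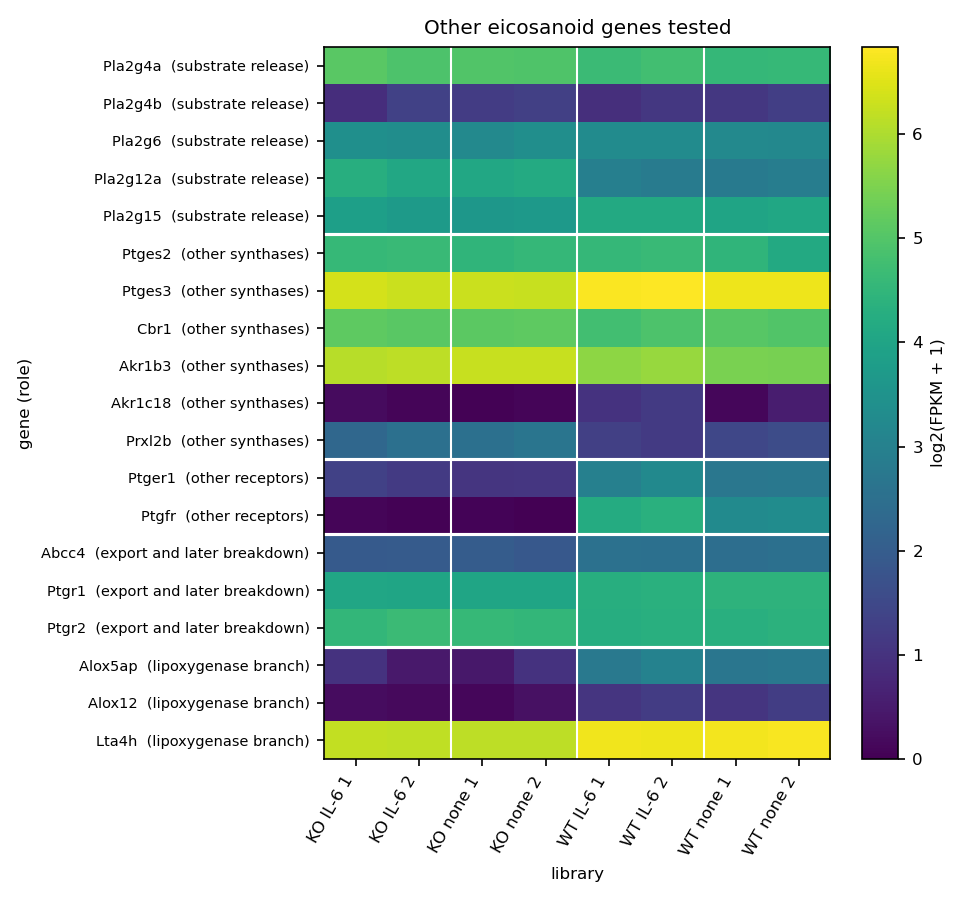
Log2(FPKM + 1) of the other tested genes of the eicosanoid pathway in each of the 8 libraries, with genes grouped by role. KO libraries with IL-6 come first and untreated WT libraries last. Ptgfr is low in KO libraries, high in WT libraries and higher there with IL-6.

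By role, the phospholipases that release arachidonic acid had 5 of 12 genes tested. For IL-6, 0 of the 5 were called by limma in either genotype, with 1 each at an unadjusted p below 0.05. In KO cells 2 of the 5 were higher and 1 lower, with and without IL-6, where 71.7% and 71% of all tested genes were called. The lipoxygenase branch had 3 of 6 genes tested, and all 3 were lower in KO cells in both conditions, where 34.5 to 34.8% of all tested genes were lower, with 0 called for IL-6 (0 at an unadjusted p below 0.05). Of 10 genes known to respond to cAMP, the messenger below Ptger2 and Ptger4, 8 were tested. With IL-6, Areg, Pde4b, Il6 and Cxcl1 rose in WT cells, where 15.7% of all tested genes were called. Nr4a1 (-0.16), Nr4a2 (-0.06), Crem (0.36) and Pde4d (0.205) were not called there. Areg passed the filter only through the WT libraries with IL-6 (1.44 and 1.69 FPKM), the group where it was highest. In KO cells 0 of the 8 were called for IL-6 (0 at an unadjusted p below 0.05), against 0.0219% of all tested genes. Between the genotypes, 2 of the 8 were higher and 6 lower in KO cells with IL-6, and 2 higher and 3 lower without it, against 71.7% and 71% of all tested genes called. The IL-6 changes differed between KO and WT cells for the same 4 genes (Areg, Pde4b, Il6 and Cxcl1), against 6.06% of all tested genes. Of these differences, that of Areg was lost without any 1 of 7 libraries (adjusted p = 0.059 to 0.104), with no filter (0.093) and with a pseudocount of 0.1 (0.0879), and that of Pde4b without any 1 of 3 libraries (0.0547 to 0.0597). Cxcl1 was under 0.27 FPKM in the KO libraries, and its difference was lost without any 1 of 7 libraries (0.0511 to 0.131), with no filter (0.0978), equal totals (0.0669) or no intensity trend (0.0541), and changed sign with a pseudocount of 0.1 (0.14, adjusted p = 0.879). The call for the rise of Cxcl1 in WT cells was also lost with that pseudocount, at a change of 0.61 (limma adjusted p = 0.197). It was kept with only the groups compared (limma adjusted p = 0.00643).

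The genes most like the 3 genes of the set with the widest range of group means were found by the root mean square difference of profiles over the 8 libraries. For Ptgis these included Tmem108 (0.089) and Wt1 (0.119), of which Wt1 is a transcription factor on the mesothelial marker list. For Ptges they were Glis3 (0.101), Ccn3 (0.119) and Kcnj2 (0.122). For Hpgd they were Piezo2 (0.289), Ccnd1 (0.301) and Lrch2 (0.312). Piezo2, a mechanically gated channel, averaged 2.72 FPKM in KO cells with IL-6, 3.01 in untreated KO cells, 6.25 in WT cells with IL-6 and 16.6 in untreated WT cells. Ccnd1, cyclin D1, averaged 2.99 FPKM in KO cells with IL-6, 3.77 in untreated KO cells, 7.08 in WT cells with IL-6 and 18.8 in untreated WT cells.

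The 3′ UTRs of the 10 genes differed in AUUUA, the core of AU-rich elements bound by RNA-stability factors. AUUUA was counted in each gene's protein-coding transcript with the highest mean FPKM over the 8 libraries. For genes under the filter that choice rests on few fragments. Ptgs2 held 14 in 2445 bases, or 5.73 per kilobase, and 1.9% of 11677 tested genes with a 3′ UTR held as many. Hpgd held 4 in 838 bases, or 4.77 per kilobase, and 24.8% of those genes held as many. By density, 5.4% of those genes were as dense as Ptgs2 and 8.0% as dense as Hpgd. Ptger2 held 6, Ptger4 5, Slco2a1 4 and Ptger3 1, and Ptgs1, Ptges, Ptgis and Ptgds held 0, beside a median of 1 over the tested genes. Of the 3 genes called for IL-6 in WT cells, Ptgs2 and Hpgd held AUUUA and Ptges held none. By comparison, 65.7% of the 11677 tested genes held at least 1, so this count is near the background. The stability of these mRNAs was not tested.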

How the data were processed

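RNA of 8 libraries was extracted with RNeasy and sequenced from TruSeq stranded mRNA libraries, per the labels' protocols. Per the submitters' processing notes, the authors deposited FPKM per transcript from Cufflinks 2.2.1 on HISAT2 alignments (GRCm38.p6). Here the 142869 transcripts of each file were summed to 55358 genes by name. The 13693 genes that reached 1 FPKM in at least 2 libraries were tested on log2(FPKM + 1) with limma 3.58.1 (R 4.3.3). The fit held 4 group means over the 8 libraries, leaving 4 residual degrees of freedom, and used an intensity trend; p-values were adjusted by Benjamini-Hochberg. Comparisons were IL-6 against none in KO and in WT, KO against WT with and without IL-6, and the difference of the IL-6 changes. Calls needed an adjusted p below 0.05.

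Fragment numbers were inferred from steps of low FPKM values, of which 93.9 to 95.0% came within 0.1 of whole fragments after fitting depth and fragment length. No pair of libraries was identical. Positions came from GENCODE M21 (GRCm38) and promoter windows from RefSeq. The test was tried on simulated data. The 10 genes, the lists and the alternatives were chosen with earlier results of these data known. The text names the 10 genes, of the 36 pathway genes all called for IL-6 or for the difference of the changes and the 3 with the largest genotype difference, the genes of a list of 10 known to respond to cAMP that were called for IL-6, chosen after their values were seen, and for 3 of the 10 genes the 3 most similar genes, of which 1 is not reported here. Of the 36 pathway genes 1 was not matched by name. Alternatives were other scalings, filters and pseudocounts, no trend, a replicate block, only the groups compared, and leaving out each library. Scaling by median ratios was added after seeing the data. Tables were read and plotted with Python 3.11.15, pandas 2.3.3 and matplotlib 3.10.9.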

Additional observations from a re-analysis of the deposited data

Results flagged for a closer look

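The IL-6 change differed between KO and WT cells by the test of the difference itself in 3 of the 6 tested prostaglandin genes, 2 of 19 other pathway genes and 4 of 8 genes known to respond to cAMP, against 6.06% of all tested genes. The difference, KO minus WT, was 2.06 for Hpgd (limma adjusted p = 0.000756), where the change was -0.02 in KO cells and -2.08 in WT cells. It was -0.56 for Ptgs2 (limma adjusted p = 0.0391), where the change was 0.13 in KO cells and 0.69 in WT cells. It was -0.75 for Ptges (limma adjusted p = 0.0344), with 0.00 in KO cells and 0.76 in WT cells. It was -0.95 for Ptgfr (limma adjusted p = 0.00459), with 0.03 in KO cells and 0.98 in WT cells. It was -0.43 for Akr1b3 (limma adjusted p = 0.0114), with -0.13 in KO cells and 0.30 in WT cells. Of the genes known to respond to cAMP, the difference was -1.18 for Areg (limma adjusted p = 0.0344), -0.60 for Pde4b (limma adjusted p = 0.0137), -1.50 for Il6 (limma adjusted p = 0.00186) and -0.46 for Cxcl1 (limma adjusted p = 0.041). Their changes in KO cells were -0.05 for Areg, -0.06 for Pde4b, -0.04 for Il6 and 0.15 for Cxcl1, and in WT cells 1.14 for Areg, 0.54 for Pde4b, 1.46 for Il6 and 0.61 for Cxcl1. Hpgd, Ptges, Ptgfr, Areg and Cxcl1 were below 0.5 FPKM in all 4 KO libraries, so their KO changes were measured near the limit of detection, whereas Ptgs2 was at 4.16 to 5.22 FPKM and Akr1b3 at 68.2 to 75.7 FPKM there. Hpgd passed the filter through the untreated WT libraries alone, and Areg through the WT libraries with IL-6 alone.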

How the results depend on the processing

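Of 50 values of single genes, 38 were called, and 26 of these kept direction and call under every alternative run, which were 16 for the difference of the changes and 17 for the other comparisons, among them the IL-6 changes of Hpgd and Ptgs2 in WT cells, the Hpgd difference of the changes and all genotype differences of the 6 tested genes. The Hpgd difference rests in each of these runs on KO levels near the limit of detection. The calls that were lost are named in the report. The Ptgis change in WT cells passed with quantile normalization (0.28, limma adjusted p = 0.0374) and without the first untreated WT library (0.33, limma adjusted p = 0.0252), and was 0.13 without the second (0.242). The number of genes called for IL-6 in WT cells was 2150, and 938 with only the groups compared and 1165 to 1774 with a library left out. In KO cells it was 3, and 7 with no filter, 5 with a filter of 5 FPKM, 0 with only the groups compared and 0 to 4 with a library left out. For the difference of the changes it was 830, and 521 with no filter and 383 to 523 with a library left out. Of the 6 tested genes 3 were called for that difference, 1 with no filter, 1 with a pseudocount of 0.1 and 1 to 2 with a library left out. The cause of these shifts was not tested.

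With equal totals, 34.8% of calls for IL-6 in WT cells were higher, against 52.8%, and 55.1% of calls for the difference, against 41.9%. The difference for Cxcl1 was 0.145 with a pseudocount of 0.1, against -0.46, and no other called value changed sign. Ptgs1 in WT cells was -0.007 with quantile normalization and -0.041 with equal totals, Ptges in KO cells -0.008 with quantile normalization, and Slco2a1 in WT cells -0.006 with equal totals. With a library left out, the IL-6 change in KO cells ranged -0.137 to 0.093 for Hpgd, -0.15 to 0.157 for Ptges and -0.023 to 0.123 for Slco2a1. The difference of the changes ranged -0.006 to 0.017 for Ptgs1 and -0.072 to 0.074 for Slco2a1.

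Same-numbered libraries showed no large shared deviation, with correlations of their deviations of -0.097 to 0.055. This cannot exclude that they were prepared together. With the replicate number as a block, 1696 genes were called for IL-6 in WT cells, 2 in KO cells, 9566 for KO against WT without IL-6 and 9685 with it, and 564 for the difference, and the calls for the Ptgs2 (limma adjusted p = 0.0519), Areg (0.0598) and Cxcl1 (0.0764) differences and for Ptger1 in WT cells (0.0688) were lost. With 2 libraries a group, small changes could be missed, and genes under 1 FPKM rest on few fragments.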
